A study of Mus musculus with 9 samples.

Results

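Amnionless (Amn), cubilin (Cubn), megalin (Lrp2) and Disabled-2 (Dab2) form the uptake machinery for which the visceral endoderm, the outer epithelium of the early mouse embryo, is known. These 4 genes of the 20660 named on the array were chosen by name, with earlier results of these data known. Their probes were found through the RefSeq accession that the scanner files give for each probe. The genes had 5 probes in all, 2 of them for Cubn and 1 for each of the others. All 4 genes passed the filter on dim probes and were among the 15014 genes tested.

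Cubilin is a large protein with no membrane span of its own, and amnionless anchors it and carries it to the apical surface. The pair, called cubam, binds intrinsic factor with vitamin B12, transferrin, albumin and apolipoproteins. Megalin is a giant member of the LDL receptor family that takes up a wide range of carrier proteins and helps to internalise cubam. Disabled-2 is an endocytic adaptor that links the cytoplasmic tails of such receptors to the clathrin coat. In the embryo before the placenta works, these proteins let the visceral endoderm take up maternal proteins, and the same set acts in the kidney proximal tubule.

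Mouse embryonic stem (ES) cells of 3 genotypes gave the RNA. One line was wild type, and the other two were knock-ins of the M1 or the M2 isoform of pyruvate kinase, labelled PKm1 knock-in and PKm2 knock-in (PKM1 and PKM2 here). Each line was sampled undifferentiated in medium with LIF (day 0) and as floating embryoid bodies, aggregates that form derivatives of all germ layers, after 3 or 7 days without LIF. Each of the 9 combinations was measured on 1 single-colour array. A day was therefore repeated only over the 3 lines, and a line only over the 3 days. The sources used here do not give how the knock-in alleles were built, how many clones they come from or whether feeder cells were present. Pkm itself, read by 1 probe, lay between 13.56 and 16.10 on the log2 scale on the 9 arrays, and whether that probe separates the isoforms is not known, so it checks no label.

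Between 54.2 and 61.6% of probes were well above background on an array, and no spot was saturated. The arrays lay on 3 slides. Slide 1 held wild type days 0 and 7, PKM1 day 3 and PKM2 days 0 and 3. Slide 2, scanned apart from it, held wild type day 3 and PKM1 days 0 and 7. PKM2 day 7 was alone on slide 3, so its value cannot be told apart from that slide. All levels below are log2 of the processed signal scaled to a common 75th percentile, and a level of 1 probe cannot be set against that of another.

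The sequences just upstream of the 4 genes are shown because the genes were followed as a set and differ clearly in their promoters. They are the 250 bases before each transcription start in RefSeq's GRCm38.p6 table, in which all 4 genes matched and Dab2 has 2 starts. The windows are chr12:111270846-111271095 on the plus strand for Amn, chr2:13491877-13492126 on the minus strand for Cubn, chr2:69586030-69586279 on the minus strand for Lrp2, and chr15:6299539-6299788 and chr15:6386498-6386747 on the plus strand for Dab2 start 1 and start 2. They are written 5′ to 3′ on the gene's strand, and capitals mark every match on either strand of the words searched, GATAA (the GATA factor core), CAAAG (HNF4), GTTAAT (HNF1), TGTTTAC (FOXA), CACGTG (E-box), CCAAT and GGGCGG (GC box), none of which overlapped another here.
Amn: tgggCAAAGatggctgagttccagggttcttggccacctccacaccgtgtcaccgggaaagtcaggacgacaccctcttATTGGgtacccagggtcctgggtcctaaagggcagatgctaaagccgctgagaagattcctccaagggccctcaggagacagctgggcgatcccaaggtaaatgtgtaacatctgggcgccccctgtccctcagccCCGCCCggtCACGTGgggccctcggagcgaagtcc
Cubn: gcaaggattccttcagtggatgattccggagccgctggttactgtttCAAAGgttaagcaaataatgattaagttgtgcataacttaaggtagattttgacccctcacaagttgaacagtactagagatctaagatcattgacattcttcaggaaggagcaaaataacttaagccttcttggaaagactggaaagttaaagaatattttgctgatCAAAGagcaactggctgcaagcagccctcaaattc
Lrp2: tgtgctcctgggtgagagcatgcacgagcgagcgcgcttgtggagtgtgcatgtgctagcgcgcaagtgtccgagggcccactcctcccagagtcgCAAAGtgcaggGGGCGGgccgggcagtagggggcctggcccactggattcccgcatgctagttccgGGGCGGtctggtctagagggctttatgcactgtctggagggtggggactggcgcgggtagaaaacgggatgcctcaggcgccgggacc
Dab2 start 1: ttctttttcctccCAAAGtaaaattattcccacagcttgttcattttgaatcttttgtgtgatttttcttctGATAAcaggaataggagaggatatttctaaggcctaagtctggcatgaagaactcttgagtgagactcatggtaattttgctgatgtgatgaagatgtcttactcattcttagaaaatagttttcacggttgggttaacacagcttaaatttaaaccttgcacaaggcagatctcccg
Dab2 start 2: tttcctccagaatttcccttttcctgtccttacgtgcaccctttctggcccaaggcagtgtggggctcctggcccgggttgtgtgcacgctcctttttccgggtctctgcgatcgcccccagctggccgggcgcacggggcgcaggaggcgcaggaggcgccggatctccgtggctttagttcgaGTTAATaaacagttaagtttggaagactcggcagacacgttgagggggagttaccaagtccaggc

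The windows of Amn, Lrp2 and Dab2 start 2 were rich in G and C, at 61.2, 66.4 and 60.0%, and held 11, 18 and 17 CpG dinucleotides. Those of Cubn and Dab2 start 1 were poor in them, at 39.6 and 36.8%, with 2 CpG each. Over all 32851 windows of the table the median was 52.4% (interquartile range 45.2 to 61.2%). The CAAAG word occurred in each window except Dab2 start 2, with 2 matches in Cubn, and 48.6% of all windows held it. GATAA was present only in Dab2 start 1 (22.6% of all windows) and GTTAAT only in Dab2 start 2 (6.4%). TGTTTAC was in none of the 5 (3.2%). CACGTG (6.0%) and CCAAT (33.8%) were found in Amn alone, CACGTG 26 bases before the start, and GGGCGG (32.7%) once in Amn and 2 times in Lrp2. CAAAG was thus the only searched word found in a window of each of the 4 genes, and no word was in all 5 windows. These matches describe letters only. Which Dab2 start the array's probe reports was not determined.

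The receptor and adaptor genes were all highest in PKM1 embryoid bodies at day 7, and the other lines differed by gene. Cubn and Amn, the partners of cubam, were lowest at day 7 in the wild type line and intermediate in the PKM2 line. Lrp2 and Dab2 had the other order, with the wild type line above the PKM2 line. None of the 4 genes passed the test across all genes in any comparison of days or lines.

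Amn, the membrane anchor of cubilin, had a probe that exceeded background on each of the 9 arrays. The level in the wild type line was 7.71 at day 0, 7.91 at day 3 and 5.89 at day 7. In the PKM1 line it was 7.98, 7.02 and 12.94 on the same days. In the PKM2 line it was 7.60, 4.93 and 8.34. The lines lay close together at day 0 (mean 7.77 ± 0.19, SD, n = 3 lines) and far apart at day 7 (9.06 ± 3.58), where the wild type array was below and both knock-in arrays above every day 0 value. Day 3 (6.62 ± 1.53) overlapped both. The day means therefore have no order beyond their spread.

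Cubn, which encodes the ligand-binding receptor of the pair, was read by a probe well above background on all 9 arrays. The level was 5.88, 7.05 and 6.66 in the wild type line at days 0, 3 and 7. It was 5.26, 6.61 and 14.21 in the PKM1 line and 4.51, 5.76 and 10.48 in the PKM2 line. The wild type line thus held the highest value of the 3 lines at days 0 and 3 and the lowest at day 7. Day means were 5.22 ± 0.69, 6.47 ± 0.65 and 10.45 ± 3.78 (SD, n = 3 lines), and the day 7 values overlapped those of day 3 but not those of day 0.

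A further Cubn probe was well above background only in wild type at day 0 (7.23), PKM1 at day 7 (9.99) and PKM2 at day 7 (6.0). It lay between 2.32, the floor, and 3.30 on the other 6 arrays. Both Cubn probes were therefore high in the same pair of day 7 embryoid bodies and not in wild type at day 7. They disagreed in size on undifferentiated cells. There this probe was at least 6.29-fold higher in wild type than in PKM1 and at least 8.73-fold higher than in PKM2, while the fitted probe differed by less (5.88, 5.26 and 4.51). In the wild type line this probe was at least 9.99-fold lower at day 7 than at day 0, where the fitted probe was slightly higher. The position of each probe in the transcript was not determined.

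Lrp2, the megalin gene, also exceeded background on each array. Its levels at days 0, 3 and 7 were 7.82, 8.80 and 11.04 in the wild type line. They were 7.96, 9.38 and 12.69 in the PKM1 line and 8.75, 10.06 and 10.19 in the PKM2 line. It was the only one of the 4 genes whose level was higher at each later day in every line. The day means of 8.18 ± 0.50, 9.41 ± 0.63 and 11.31 ± 1.27 (SD, n = 3 lines) came from values that did not overlap between days, although PKM2 at day 3 (10.06) and at day 7 (10.19) were nearly level.

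Dab2, the adaptor, was well above background on 7 of 9 arrays, with the day 3 arrays of the wild type and PKM1 lines as exceptions. Its levels at days 0, 3 and 7 were 6.13, 4.01 and 9.80 in the wild type line. They were 5.29, 3.42 and 12.80 in the PKM1 line and 5.32, 5.06 and 7.37 in the PKM2 line. Each line was lowest at day 3 and highest at day 7, a dip that neither Cubn nor Lrp2 showed in any line. Day means were 5.58 ± 0.48, 4.16 ± 0.83 and 9.99 ± 2.72 (SD, n = 3 lines), and no values overlapped between any of the days. The share of all genes without overlap between days is not given here. The separation of days seen for Cubn, Lrp2 and Dab2 therefore cannot be set against it.

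**Figure D1:**
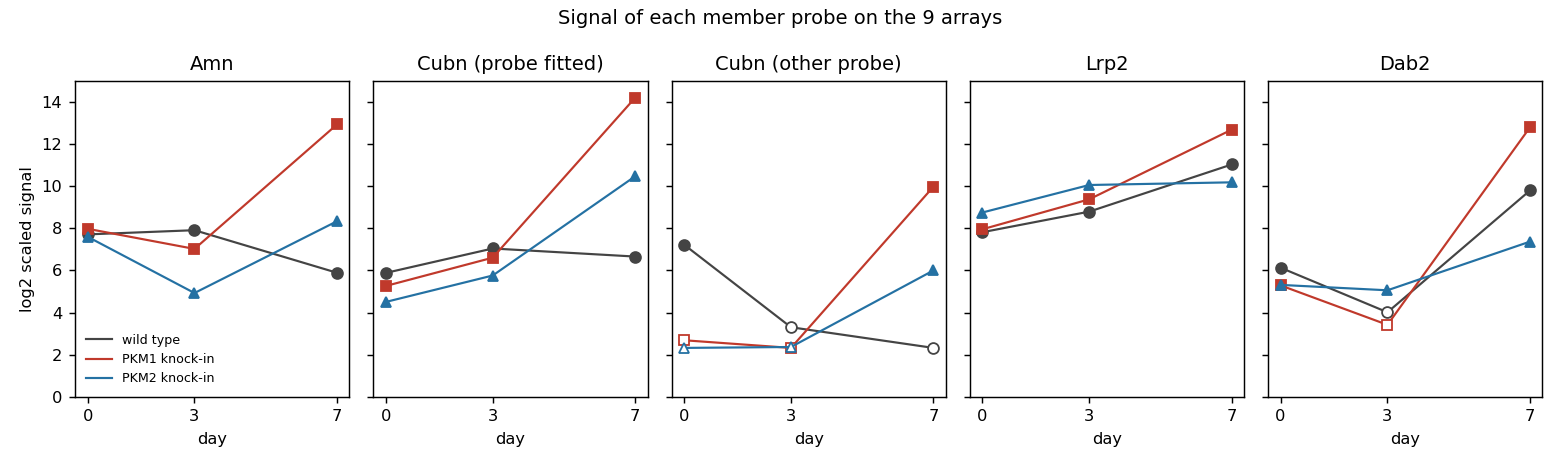
Log2 scaled signal (vertical axis) of the 5 probes at days 0, 3 and 7 (horizontal axis) in the wild type, PKM1 knock-in and PKM2 knock-in lines, 1 array per point. Open symbols are probes not well above background on that array. PKM1 at day 7 is the highest point in each panel, and the wild type line ends lowest for Amn and Cubn but in between for Lrp2 and Dab2.

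Between day 0 and day 7, Cubn was 5.23 ± 1.51 higher on the log2 scale (SE, 37.6-fold, 95% interval 1.62 to 8.85), and in all 3 lines. That size and count belong to the fitted probe, since the mean of both Cubn probes gave 3.63 and the other probe 2.02 (limma, adjusted p = 0.398 and 0.666), and the wild type line then ran the other way (−2.07 and −4.91). Dab2 was 4.41 ± 1.21 higher (21.3-fold, 1.51 to 7.31) and Lrp2 3.13 ± 0.62 higher (8.75-fold, 1.63 to 4.62), again in 3 of 3 lines. Amn was 1.29 ± 1.44 higher (interval −2.15 to 4.73) and in 2 of 3 lines. In limma's additive model of line and day, with Benjamini-Hochberg adjustment over all genes, the adjusted p was 0.222 for Cubn, 0.209 for Dab2, 0.154 for Lrp2 and 0.693 for Amn. So 0 of 4 genes were called, against 0.0999% of all genes tested (1 higher, 14 lower), and 3 of the 4 had an unadjusted p under 0.05 as did 2154 of the 15014 genes. The median of the 4 differences was 3.77 and that of all genes −0.04.

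Leaving out 1 day 7 array moved these values. Without PKM1 day 7, the day 7 minus day 0 difference of Amn turned to −0.50, and those of Cubn, Dab2 and Lrp2 were 3.40, 2.75 and 2.37. Without wild type day 7, Cubn was 7.44 and Amn 3.18 (adjusted p = 0.116 and 0.376), while Dab2 at 4.61 and Lrp2 at 3.02 moved little. Without PKM2 day 7, that of Lrp2 was 3.99 and passed the test (limma, adjusted p = 0.028), while Dab2 at 5.88 (adjusted p = 0.06) and Cubn at 4.86 (adjusted p = 0.21) did not. How many of all genes passed in that fit is not given here. With slide as a block, the day 7 minus day 0 differences were 1.18 for Amn, 4.86 for Cubn, 3.99 for Lrp2 and 5.88 for Dab2, and none passed the test (limma, adjusted p = 0.678, 0.245, 0.0611 and 0.0946). That block leaves PKM2 day 7, alone on its slide, without weight, so these differences equal those without that array.

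The step from day 0 to day 3 was small for Cubn and Lrp2 and went the other way for Dab2. Cubn was 1.25 ± 1.51 higher at day 3 and Lrp2 1.24 ± 0.62 higher, each in 3 of 3 lines. The Cubn direction turned with the mean of its probes (−0.081) and with the other probe (−1.42). Dab2 was 1.42 ± 1.21 lower in 3 of 3 lines and Amn 1.14 ± 1.44 lower in 2 of 3. The adjusted p-values in limma were 0.639, 0.262, 0.497 and 0.654 in that order, and 0 of 4 genes were called where 4.06% of all genes were (279 higher, 331 lower). None of the 4 had an unadjusted p under 0.05. Fitted to the 6 arrays of these days alone, Cubn (limma, adjusted p = 0.0257) and Lrp2 (adjusted p = 0.0296) passed the test. Their differences were the same, with Cubn read by its fitted probe. That fit left out the day 7 arrays, and why these genes passed there was not tested. The share of all genes called in that fit is not given here.

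From day 3 to day 7, Dab2 was 5.83 ± 1.21 higher (limma, adjusted p = 0.0787), Cubn 3.98 ± 1.51 (adjusted p = 0.14), Amn 2.43 ± 1.44 (adjusted p = 0.287) and Lrp2 1.89 ± 0.62 (adjusted p = 0.114). In this comparison 0% of all genes were called by limma, although 4560 of them and 3 of the 4 genes had an unadjusted p under 0.05. Without PKM2 day 7 the differences of Dab2 and Lrp2 were 7.29 and 2.76 and passed the test (adjusted p = 0.0175 and 0.0173). A slide block leaves PKM2 day 7, alone on slide 3, without weight, so it gave these same differences and is no separate support. Both passed there too (limma, adjusted p = 0.0327 and 0.0364). The share of all genes called under either setting is not given here. An F test over the 3 days gave adjusted p-values of 0.0825 for Lrp2, 0.0838 for Dab2, 0.133 for Cubn and 0.439 for Amn, with 1.18% of all genes called.

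**Figure D2:**
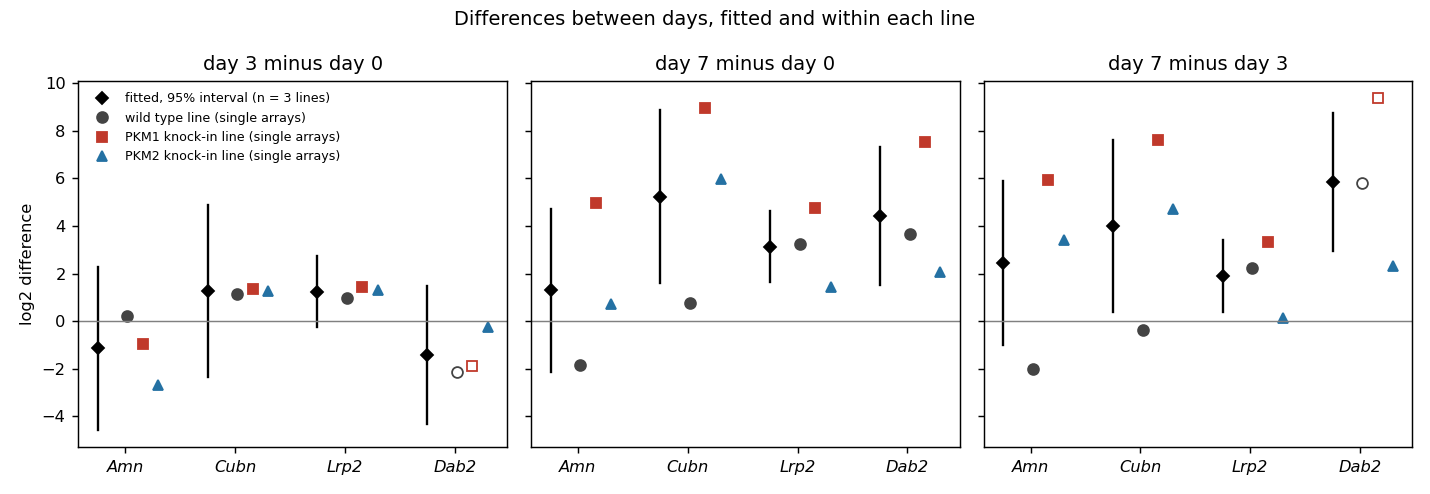
Log2 differences between days (vertical axis) for each gene, with the fitted value and its 95% interval over 3 lines (diamonds) and the difference of the single arrays of each line. Open symbols rest on an array on which the probe was not well above background. For day 7 minus day 0 the PKM1 line is the highest point for each gene, and the wild type point lies below 0 for Amn.

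Within single lines, where no test is possible, the differences from day 0 to day 7 were largest in PKM1 embryoid bodies for each of the 4 genes. In that line, with both arrays on slide 2, Cubn was 494-fold higher, Dab2 182-fold, Amn 31.0-fold and Lrp2 26.6-fold. All 4 genes were thus at least 4-fold higher, as were 5.97% of all genes in that line. In the wild type line, with both arrays on slide 1, Dab2 was 12.7-fold and Lrp2 9.31-fold higher, Cubn 1.71-fold higher and Amn 3.54-fold lower. By its other probe Cubn was at least 9.99-fold lower there. So 2 of 4 genes were at least 4-fold higher against 2.36% of all genes. In the PKM2 line, whose arrays lay on different slides, Cubn was 62.8-fold, Dab2 4.16-fold, Lrp2 2.70-fold and Amn 1.67-fold higher, 2 of 4 past 4-fold against 2.24% of all genes. Among all genes of the PKM2 line, the Cubn difference (5.97 on the log2 scale) ranked 2 from the top, after that of S100g, a calcium-binding protein gene (7.60).

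By day 3 no gene of the set was 4-fold higher in any line, against 1.7% of all genes in the wild type, 1.89% in the PKM1 and 1.63% in the PKM2 line. By its fitted probe Cubn was 2.24-, 2.54- and 2.39-fold higher in these lines. Lrp2 was 1.97-, 2.68- and 2.47-fold higher, a close range for both. The other Cubn probe fell in the wild type line, from 7.23 at day 0 to 3.30 at day 3, where it was not well above background. In the PKM1 and PKM2 lines that probe was not well above background on either day. Amn was 6.38-fold lower in the PKM2 line, with both arrays on slide 1, and 1.15-fold higher in the wild type line. Dab2 at day 3 was at least 4.26-fold lower in the wild type and at least 2.05-fold lower in the PKM1 line, bounds set by the dimmest signal that counted as above background.

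Between days 3 and 7 Dab2 was at least 54.2-fold higher in the wild type line, at least 373-fold in the PKM1 line and 4.97-fold in the PKM2 line. At least 4-fold higher over this interval were 2 of the 4 genes in the wild type line (4.78% of all genes), all 4 in the PKM1 line (7.67%) and 3 in the PKM2 line (2.15%). Lrp2 was the exception in the PKM2 line, at 1.09-fold.

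Differences between the lines over all days were within the spread of the arrays. The PKM1 line was above wild type by 2.14 for Amn, 2.17 for Cubn, 0.79 for Lrp2 and 0.52 for Dab2 on the log2 scale (limma, adjusted p = 0.635, 0.649, 0.7 and 0.923). It was above on 3 of 3 days for Lrp2 and 2 of 3 for Amn, but on 1 of 3, day 7, for Cubn and Dab2. Without PKM1 day 7 these differences were 0.35, 0.33, 0.038 and −1.14. PKM2 minus wild type was −0.22, 0.38, 0.45 and −0.73 (adjusted p = 0.959, 0.93, 0.783 and 0.819), and PKM2 minus PKM1 was −2.36, −1.78, −0.34 and −1.26 (adjusted p = 0.672, 0.732, 0.87 and 0.755). The 3 comparisons called 0 of 4 genes each, 0 of 4 also at an unadjusted p under 0.05, and 0.0133%, 0.0133% and 0% of all genes. The last of them had 1167 genes at an unadjusted p under 0.05. An F test over the lines gave adjusted p-values from 0.618 for Amn to 0.808 for Dab2, with 0.0133% of all genes called.

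By the fitted probes, the range over the lines was widest at day 7 for each of the 4 genes. At day 0 their difference of greatest size was −1.38, for Cubn in PKM2 minus wild type. The other Cubn probe had the same direction and a larger size, at least 8.73-fold higher in wild type. At day 3 Amn was 7.92-fold lower in PKM2 than in wild type and 4.27-fold lower than in PKM1, and the other genes differed by at most 3.12-fold, for Dab2. At day 7 PKM1 exceeded wild type 188-fold for Cubn and 132-fold for Amn, against 8.0-fold for Dab2 and 3.15-fold for Lrp2. PKM2 exceeded wild type 14.1-fold for Cubn and 5.46-fold for Amn, whereas Dab2 was 5.39-fold and Lrp2 1.80-fold lower. These are ratios of single arrays on different slides, and the interaction of line and day could not be tested with 1 array for each combination.

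The day 7 levels were set beside markers of the tissues that embryoid bodies can hold, since in such bulk RNA fewer cells of a type and less RNA per cell cannot be told apart. Summed over 10 visceral endoderm markers, the signal at day 0 was 1216 to 3500 in the 3 lines. At day 7 it was 579500 in PKM1, 40720 in wild type and 6570 in PKM2 embryoid bodies, with 10, 9 and 8 of the 10 markers well above background. Afp (alpha-fetoprotein) stood at 17.70, 9.10 and 6.31 and Ttr (transthyretin) at 15.15, 9.47 and 8.71 in the same order. Apoa1 was not well above background in PKM2, and Apoa4 in neither wild type nor PKM2.

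All 8 visceral endoderm markers tested were lower in PKM2 than in wild type at day 7 (median difference −1.76, all genes 0.13), as were Lrp2 and Dab2, while Cubn and Amn were higher. The 12 parietal endoderm markers, of the other primitive endoderm lineage, summed to 882700 in PKM1, 171400 in wild type and 72440 in PKM2 at day 7, against 61310 to 70510 at day 0. Dab2 and Lrp2 had the same order of lines at day 7, as did the summed visceral endoderm markers. Dab2 is known in both endoderm lineages.

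Fibroblast and feeder cell markers were high at day 0 in wild type (summed signal 17610) and PKM1 (16320) and lower in PKM2 (4672), with 9 of 10 well above background in each. They were 812.7 to 1584 at day 3 and 670.6 to 6425 at day 7. Summed neuroepithelium markers at day 7 were 3306 in wild type, 1900 in PKM1 and 1664 in PKM2. The single markers did not all follow the sums. Of 7 tested, 4 were higher and 3 lower in PKM2 than in wild type at day 7 (median 0.18). In PKM1, 1 was higher and 6 were lower than in wild type (median −0.48). The 8 trophoblast markers summed to 7032 in wild type, 4694 in PKM1 and 3336 in PKM2 at day 7, with 7, 8 and 4 well above background. Their median difference from day 0 to day 7 was 1.68, 2.14 and −1.27. The 6 pluripotent cell markers, all above background on every array, summed to 97650, 51550 and 165800 at day 7 against 162200 to 227900 at day 0. From day 0 to day 7, 1 of the 6 was higher in wild type, 1 in PKM1 and 4 in PKM2 (medians −0.56, −1.88 and 0.21). All 6 were higher in PKM2 than in wild type at day 7. Of the 6 kidney proximal tubule markers, 2 to 3 were well above background on any array, and of the 7 macrophage markers with a probe, 3 to 5. The part of any of these cell types in the levels of the 4 genes was not tested.

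The ligands that megalin and cubilin carry, several of which the visceral endoderm also makes, were mostly higher at day 7 in the fit over all lines. Of 14 listed, 10 were tested, 9 were higher and 1 lower at day 7 than at day 0, with a median of 1.45 (all genes −0.04). None was called, and 5 had an unadjusted p under 0.05 in limma. Ttr was 8.17 ± 1.23 higher (adjusted p = 0.0967), Apob 5.30 ± 1.52 (adjusted p = 0.221) and Rbp4, the retinol carrier, 4.83 ± 1.64 (adjusted p = 0.274). These genes are also among the visceral endoderm markers. Apom stood at 14.998 in PKM1 at day 7 and between 5.16 and 7.27 on the other 8 arrays, and Trf, transferrin, at 14.65 there and between 9.93 and 10.79 elsewhere. Trf, counted as higher in the fit, was higher at day 7 in 1 of 3 lines only. Within single lines, 7 of the 10 ligands tested were higher at day 7 in wild type, 9 in PKM1 and 6 in PKM2. The medians were 1.36, 3.72 and 0.33 in that order.

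Hp, haptoglobin, was the only ligand of the list called between days, and fell by 3.21 ± 0.64 from day 0 to day 3 (limma, adjusted p = 0.0473, lower in 3 of 3 lines). It stood at 9.29 in wild type and 9.30 in PKM1 but 5.78 in PKM2 at day 0. The fibroblast marker sum at day 0 was also lowest in PKM2, on the same single arrays, and a link between them was not tested. Gc, the vitamin D-binding protein, differed more between lines than between days. It was not well above background on any wild type array (2.32 to 3.37), and stood at 6.22, 10.05 and 9.60 in PKM1 and at 9.01, 10.59 and 9.37 in PKM2 cells at days 0, 3 and 7. Over the 3 days it was thus at least 24.6-fold higher in PKM1 and at least 50.2-fold higher in PKM2 than in wild type cells, and neither difference passed the test (limma, adjusted p = 0.103 and 0.0618). Alb and Cblif, which encode albumin and intrinsic factor, did not exceed background anywhere.

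In the fit over all lines, the general machinery around the receptors differed little between days 0 and 7. Of 14 partners (chaperone, adaptors and recycling factors), 9 were higher and 5 lower at day 7 with a median of 0.07, and none was called (1 at an unadjusted p under 0.05 in limma). The largest differences were those of Clcn5, an endosomal chloride transporter (1.23), and Myo6, the motor that moves clathrin-coated vesicles inward (1.2). Both were highest in PKM1 at day 7, Clcn5 at 10.66 and Myo6 at 7.88. Lrpap1, the chaperone that escorts megalin through the secretory pathway, lay between 10.92 and 13.86, with its highest value in PKM1 at day 7 too.

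The 16 clathrin coat and AP-2 genes were 8 higher and 8 lower at day 7, with a median of 0.01, and none was called or had an unadjusted p under 0.05 in limma. Of 11 other LDL receptor family genes tested, 7 were higher and 4 lower (median 0.13), and none was called (1 at an unadjusted p under 0.05). At day 3, Vldlr, the VLDL receptor, was 3.62 ± 0.50 lower (limma, adjusted p = 0.0253), in 3 of 3 lines, and it lay between 10.03 and 11.42 at day 7, close to its day 0 values of 10.31 to 11.21.

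Endoderm transcription factors had a course like that of Dab2. Of 9 tested, 7 were lower and 2 higher at day 3 than at day 0 (median −1.21, all genes 0.09), and 8 were higher and 1 lower at day 7 (median 2.73). None was called at either day, and 3 and 7 of them had an unadjusted p under 0.05 in limma. Foxa2 was 5.45, Sox17 4.81, Hnf4a 4.68 and Gata6 3.31 higher at day 7. At that day all 9 were lower in PKM2 than in wild type (median −1.17) and 8 of 9 higher in PKM1 than in wild type (median 2.74).

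By line, the median difference from day 0 to day 7 over the 4 genes was 2.0 in wild type, 6.23 in PKM1 and 1.75 in PKM2. For the visceral endoderm markers it was 3.44, 9.43 and 1.63, for the endoderm transcription factors 1.64, 5.74 and 0.80, and for the parietal endoderm markers 1.97, 4.62 and 0.24. The coat genes stood at 0.14, 0.06 and −0.18, near the medians of all genes of −0.03, −0.17 and 0.04.

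**Figure D3:**
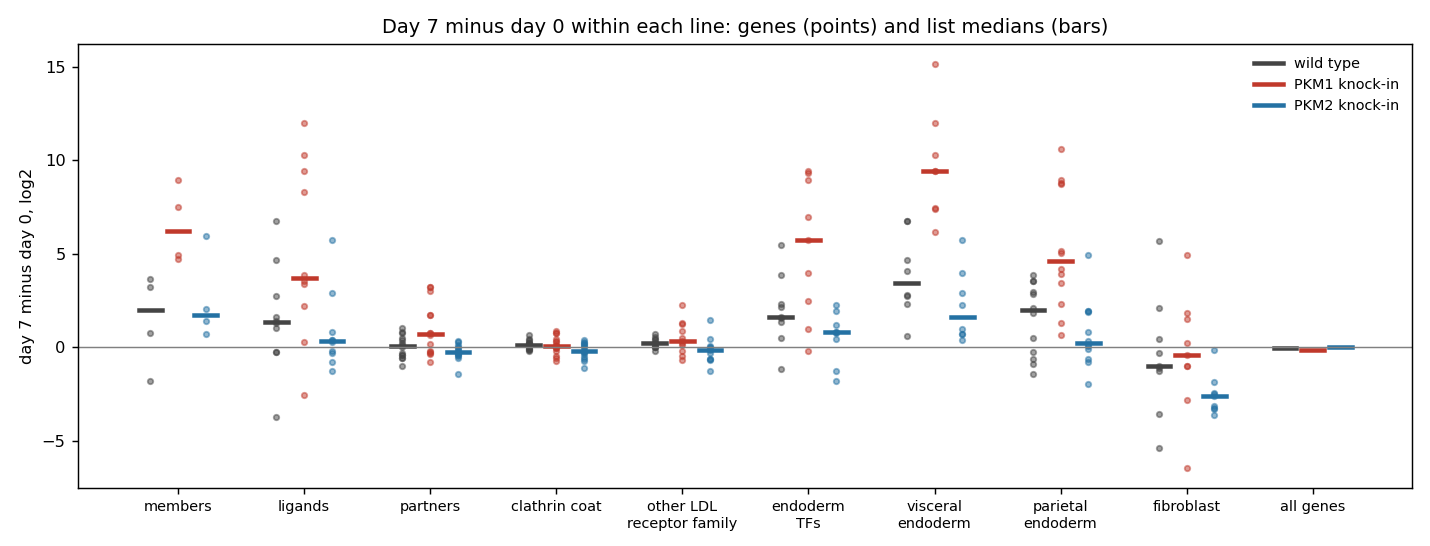
Day 7 minus day 0 log2 difference (vertical axis) of each gene tested (points) and the median of each gene list (bars) within each line, 1 array per line and day. The PKM1 line has the highest median for the 4 genes and for each endoderm list, while clathrin coat genes and all genes stay near 0.

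Across the 9 arrays, which share the PKM1 day 7 array as their extreme point, the profiles of the 4 genes were alike only in part. Amn and Cubn had r = 0.804 (rho = 0.5), and r = 0.289 without PKM1 day 7. Cubn and Lrp2 had r = 0.79 and the highest rank correlation of the 6 pairs (rho = 0.7), with r = 0.469 without it. Lrp2 and Dab2 had r = 0.811 (rho = 0.483) and r = 0.561 without it. Amn and Lrp2 had r = 0.443, which became −0.58 without it. Dab2 had r = 0.617 with Amn and 0.754 with Cubn, and −0.183 and 0.3 without it.

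The named genes whose profile lay nearest to each member by Pearson's r over the 9 arrays differed between members. For Dab2 they were the type IV collagen chain genes Col4a2 and Col4a1 (both r = 0.986, and 0.966 and 0.969 without PKM1 day 7), followed by Bmper, Clic6 and Camk2d. For Lrp2 they were Ptpn13, a tyrosine phosphatase gene (0.978, and 0.959), and Ilk, Soat1, Itgb1 and Rnf14. For Cubn they were Klb, a co-receptor of endocrine FGFs (0.97, and 0.978), the water channel gene Aqp8 (0.969, and 0.932), Nog, Rab3il1 and Ramp2. For Amn they were Foxe3 (0.957, and 0.851), Gna12, Slc44a3, Eva1a and Gsta2. Likeness over 9 arrays that share lines and days is a description only.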

How the data were processed

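RNA from 3 mouse ES cell lines at 3 days was hybridised to 9 single-colour Agilent arrays, 1 per line and day. The intensity values deposited by the authors are background-subtracted processed signals from Agilent Feature Extraction 10.10, per the submitters' processing notes (10.10.1.1 per the file headers). A deposited value table repeats these intensity values in rounded form (largest difference 0.497%) and served as an alternative.

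Control (3671 of 62976) and flagged spots (318 to 456 an array) were left out and spots of a probe averaged. Signals were scaled to a common 75th percentile, floored at 5 and log2 transformed. Of 55681 probes, 27235 were named through RefSeq accessions. A probe had to be well above background on 3 or more arrays, and a gene was represented by its probe of highest mean. limma 3.58.1 (R 4.3.3) fitted line plus day to all 9 arrays, with Benjamini-Hochberg adjustment and a threshold of 0.05. The scripts were tested on simulated data. Named genes are the 4 members, genes of lists on endocytosis and cell types, and the 5 nearest profiles per member, predicted genes left out. S100g was named after its value was seen. Members and lists were chosen with earlier results of these data known. Nothing says whether cultures were separate, so p-values measure only the spread between these samples, and their precision is limited by how many arrays there were. The alternatives were other background corrections, normalizations, filters, floors, probes, blocks and left-out arrays.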

Additional observations from a re-analysis of the deposited data

Results flagged for a closer look

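Some differences between days went in opposite directions in different lines. They rest on single arrays and the difference between the lines was not tested. Amn at day 3 minus day 0 was 0.20 in the wild type line on the log2 scale, but −0.96 in the PKM1 and −2.67 in the PKM2 line. At day 7 minus day 0 Amn was −1.82 in the wild type line, 4.96 in the PKM1 and 0.74 in the PKM2 line. At day 7 minus day 3 Amn was −2.02, 5.91 and 3.41 in these lines. Cubn at day 7 minus day 3 was −0.38 in the wild type line, 7.60 in the PKM1 and 4.72 in the PKM2 line.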

How the results depend on the processing

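Over 29 settings, 662 of 708 values per gene kept their direction and their side of the threshold, 10 passed it only under the alternative, 33 reversed, 3 of the differences within a line moved by more than the spread, and none lost a call, as there was none to lose. Counts of the 4 genes called changed at day 3 minus day 0 with the 6 arrays of those days alone (2), at day 7 minus day 3 with slide as a block (2, Lrp2 at 2.76 and Dab2 at 7.29), which leaves PKM2 day 7 without weight, and on leaving out a line or an array (0 to 1 at day 7 minus day 0, 0 to 2 at day 7 minus day 3). The share of all genes called under those settings is not given here, so these counts cannot be set against it. With the mean of the Cubn probes, or with its other probe, an alternative chosen after seeing the data, Cubn turned to −0.081 and −1.42 at day 3 minus day 0, to −0.17 and −0.72 for PKM2 minus wild type, and to −2.07 and −4.91 at day 7 minus day 0 in the wild type line. With slide as a block, PKM2 minus wild type became 0.44 for Amn and 1.01 for Dab2, and PKM2 minus PKM1 became 0.63 for Lrp2 and 0.77 for Dab2. Leaving out single arrays, lines or days, Amn at day 7 minus day 0 ranged from −0.54 to 3.18. PKM1 minus wild type ranged from −0.31 to 3.66 for Amn, −0.53 to 3.56 for Cubn and −1.14 to 1.52 for Dab2. PKM2 minus wild type ranged from −2.11 to 1.23 for Amn, −1.82 to 1.52 for Cubn, −0.0080 to 1.32 for Lrp2 and −1.90 to 0.73 for Dab2. PKM2 minus PKM1 ranged from −2.73 to 0.055 for Cubn, −0.91 to 0.74 for Lrp2 and −2.70 to 0.83 for Dab2. The cause of these shifts was not tested. Dab2 could not be fitted under the filter that asks for detection on every array. Days were compared within lines and lines within days in the fit, and leaving that block out changed no call or direction of the 4 genes. Dim signals limit Dab2 at day 3 and the other Cubn probe.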
